A study of Mus musculus with 2 samples.

Results

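The 9 genes described here are factors that mark or set the stemness and differentiation of T and NK cells: *Tcf7*, *Lef1*, *Slamf6*, *Il7r*, *Id2*, *Id3*, *Eomes*, *Tbx21* and *Tox*. They were taken by symbol from the 33696 genes listed in the deposited tables, and all 9 were found. Their RNA was followed in 2296 T-like and NK-like cells among 9847 immune cells and 13939 cells kept in all. The cells came from subcutaneous tumors of CT26, a mouse colon carcinoma line, grown in male BALB/c mice that were 6 to 8 weeks old at use. UT mice were left untreated. BUP-treated mice received a hydrogel, BUP-Gel, that carries the local anesthetic bupivacaine (BUP) at 40 mg/kg, and tumors of both groups were digested, sorted for live CD45+ (immune) and CD45- cells and run with the 10X 5′ v2 single-cell chemistry. CT26 is a single transplanted line, and 3 tumors were pooled in each library.

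T cell stemness is the capacity of a T cell to renew itself while giving rise to effector cells. *Tcf7* encodes TCF-1 and *Lef1* encodes its paralog LEF-1, DNA-binding partners of β-catenin that are high in naive, memory and stem-like T cells, whereas the T-box factors T-bet (*Tbx21*) and Eomes direct effector and NK cell programs. *Id2* and *Id3* encode small proteins that hold E proteins, a class of activating factors, away from DNA, and effector cells use mainly *Id2* while naive and memory cells use *Id3*. *Tox* encodes an HMG-box factor required for the persistence of exhausted CD8 T cells, the cells that arise under lasting antigen in tumors. *Il7r* encodes the receptor chain through which interleukin 7 keeps T cells alive, and *Slamf6* a surface receptor used as a marker of stem-like CD8 T cells.

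With 1 library per condition, differences between the conditions could not be tested, and no p-value is given. Every value is a sum of unique molecular identifiers (UMIs, each marking 1 captured RNA molecule) over the cells of a class. It is divided by all UMIs of that class and scaled to CPM, the usual depth-corrected unit. The 95% interval covers counting error only, as if each UMI were drawn on its own, and not differences between cells or between animals. Sequencing gave 83228442 UMIs over 7556 barcodes for UT and 89918925 UMIs over 7221 barcodes for BUP-treated tumors. Between the libraries, 76 barcodes were shared, and 3 of these were T or NK cells in both. A difference is called where it is past 1.5-fold with at least 100 UMIs of the gene over both libraries in the class, and the share of all genes called the same way is given beside it.

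The cells fell into 4 classes named from marker genes, with the 9 factors left out of the genes used for clustering. CD8 T-like cells numbered 309 in UT and 481 in BUP-treated tumors, and were led by *Cxcr6*, *Cd3g*, *Cd8a*, *Cd3e* and *Cd8b1*. Cycling CD8 T-like cells numbered 191 and 285 and were led by *Pclaf*, *Stmn1* and *Top2a*. Other T-like cells numbered 110 and 87, with *Il17a*, *Scart1*, *Foxp3* and *Tnfrsf4* at their head, and NK-like cells numbered 489 and 344, led by *Gzmg*, *Gzma* and *Ncr1*. The marker check went against 1 name in part. In the cycling class *Ncr1*, which encodes the NK receptor NKp46, stood at 178 CPM (UT) and 120 CPM (BUP-treated) beside 855 and 886 CPM of *Cd3e*, so this class holds cycling NK-like cells too. A further cluster of 539 cells had 299 CPM of *Cd3e* with 10236 CPM of the macrophage gene *Lyz2* and high doublet scores in 42.1% of its cells; it was kept out of the classes and held 4.67% of the immune cells in UT and 6.62% in BUP-treated tumors.

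*Tcf7* lies on chromosome 11 (52143107 to 52174619, minus strand, GRCm39) and *Lef1* on chromosome 3 (130903919 to 131018005, plus strand). As this pair separates other T-like from CD8 T-like cells, the 250 bases before their annotated start sites, chr11:52174620-52174869 on the minus strand and chr3:130903669-130903918 on the plus strand of GRCm39, are shown 5′ to 3′. Capitals mark the E-box letters CANNTG, the motif read by the E proteins that *Id2* and *Id3* restrain, and in *Tcf7* also the T-box core TCACAC, which appears on the opposite strand as GTGTGA.
Tcf7: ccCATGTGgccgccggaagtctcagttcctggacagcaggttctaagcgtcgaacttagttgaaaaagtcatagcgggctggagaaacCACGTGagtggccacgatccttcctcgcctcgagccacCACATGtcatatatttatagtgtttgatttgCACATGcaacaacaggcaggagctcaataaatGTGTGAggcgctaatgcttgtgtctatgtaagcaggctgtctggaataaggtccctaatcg
Lef1: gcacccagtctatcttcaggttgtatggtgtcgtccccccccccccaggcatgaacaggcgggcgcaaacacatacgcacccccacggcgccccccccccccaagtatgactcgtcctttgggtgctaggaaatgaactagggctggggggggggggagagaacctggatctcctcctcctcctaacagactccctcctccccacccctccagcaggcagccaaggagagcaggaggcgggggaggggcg
CANNTG reads the same on both strands, and the motifs do not overlap in the sequences shown. The window before *Tcf7* held 4 E-box matches and 1 T-box match, and that before *Lef1* held neither. Among 21770 gene starts, 64.8% had an E-box match and 11.58% a TCACAC match in a window of this length, on either strand. The TCF and LEF core CTTTGA, found before 14.12% of gene starts, was in neither window. A match is a description of these letters and not evidence of binding.

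*Tcf7* was highest in other T-like cells and lowest in CD8 T-like cells. In other T-like cells it measured 153 CPM (interval 116 to 196) in UT and 167 CPM (127 to 216) in BUP-treated tumors. NK-like cells held 35.9 CPM (29.9 to 42.7) and 42.1 CPM (34.3 to 51.2), and cycling CD8 T-like cells 34.0 CPM (26.9 to 42.5) and 22.0 CPM (17.2 to 27.9). CD8 T-like cells held 4.55 CPM (2.18 to 8.37) and 3.29 CPM (1.58 to 6.05), from 10 UMIs in each library. The intervals of the UT NK-like and UT cycling cells overlapped, and those of other T-like and CD8 T-like cells were apart from all others in both libraries.

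Few CD8 T-like cells carried a *Tcf7* transcript. It was found in 5 of 309 UT and 4 of 481 BUP-treated cells, 1.14% over both libraries at a median depth of 5888 UMIs, against 34.0% of other T-like and 16.7% of NK-like cells. After each cell was thinned to 2000 UMIs, with 45 shallower CD8 T-like cells left out, the share was 0.671% (0.218 to 1.56). Macrophages should lack *Tcf7*: the thinned share was 0.433% (0.159 to 0.941) in the macrophage-like cluster led by *C1qa*, at an unthinned median depth of 12258.5 UMIs, and 0% (up to 0.173) in the one led by *Cxcl3*, at 7688 UMIs. The share in CD8 T-like cells was above the latter and could not be told apart from the former. Before thinning, the 9 cells had a median of 11823 UMIs, against 5888 in the class. Of these cells, 8 also had a *Tox* UMI. An *Ncr1* UMI was found in 4, all from the BUP-treated library, and a *Lef1* UMI in 3, all from UT.

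*Lef1* had the same order at its ends, with more in NK cells. Other T-like cells held 155 CPM (119 to 199) in UT, against 159 CPM (120 to 206) in BUP-treated tumors, NK-like cells 106 CPM (95.3 to 117) and 123 CPM (109 to 138), cycling CD8 T-like cells 41.0 CPM (33.1 to 50.2) and 33.4 CPM (27.3 to 40.4), and CD8 T-like cells 16.4 CPM (11.5 to 22.7) and 8.88 CPM (5.85 to 12.9). The UT interval of other T-like cells lay just above that of NK-like cells, and in the BUP-treated library the intervals of these classes overlapped. A *Lef1* UMI was found in 42.3% of NK-like and 34.5% of other T-like cells, but in 6.96% of CD8 T-like cells. Of all *Lef1* UMIs in the 4 classes, 63.5% lay in NK-like cells and 6.05% in CD8 T-like cells.

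**Figure D1:**
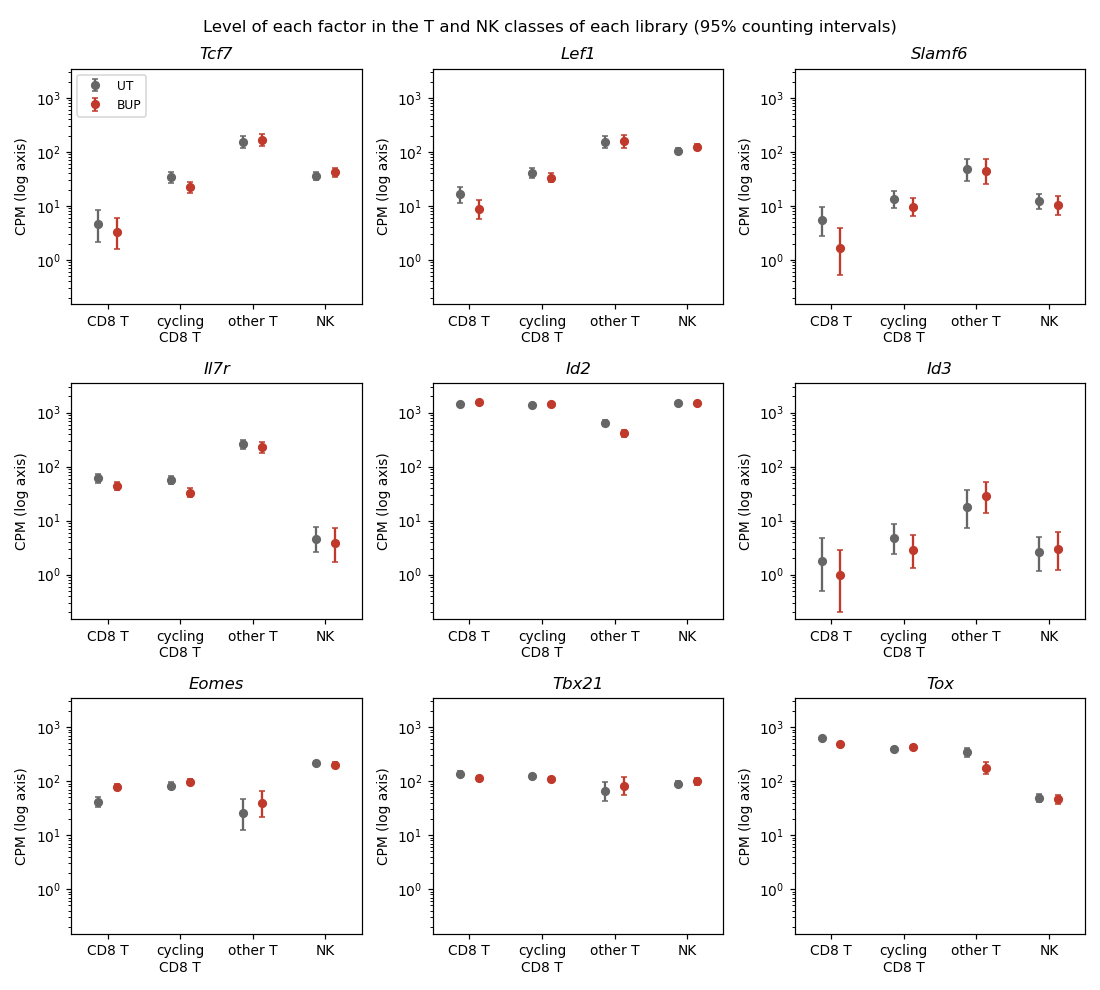
Level of each factor (CPM, log axis) in the 4 classes of T-like and NK-like cells, with UT in grey and BUP-treated in red; points are sums over the cells of a library and bars are 95% counting intervals. *Tcf7*, *Lef1*, *Slamf6*, *Il7r* and *Id3* peak in other T-like cells, *Eomes* in NK-like cells and *Tox* in CD8 T-like cells.

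*Slamf6* (chromosome 1, 171745057 to 171780737) was sparse and followed the same classes. It measured 48.3 CPM (29.1 to 75.5) in UT, against 45.3 CPM (25.9 to 73.6) in BUP-treated other T-like cells, and 5.46 CPM (2.82 to 9.55) and 1.64 CPM (0.534 to 3.84) in CD8 T-like cells. The cycling and NK-like classes lay between 9.76 and 13.5 CPM with overlapping intervals. Macrophage-like cells also held 9.32 to 11.2 CPM of *Slamf6*, above the level of CD8 T-like cells.

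*Il7r* (chromosome 15, 9505874 to 9530262) separated T-like from NK-like cells. Other T-like cells held 257 CPM (209 to 312) in UT, against 227 CPM (180 to 282) in BUP-treated tumors, and NK-like cells 4.59 CPM (2.62 to 7.46) and 3.79 CPM (1.73 to 7.20). CD8 T-like cells held 60.1 CPM (50.3 to 71.3) and 43.4 CPM (36.3 to 51.5), and cycling cells 56.3 CPM (47.0 to 66.8) and 32.8 CPM (26.8 to 39.7). CD8 T-like and cycling cells overlapped in each library. An *Il7r* UMI was found in 20.1% of CD8 T-like and 39.6% of other T-like cells, although the latter were sequenced to a median of 3275 UMIs.

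The 2 inhibitors of E proteins divided the classes in opposite ways. *Id2* (chromosome 12, 25143798 to 25147282) measured 1449 CPM (1399 to 1500) in UT, against 1579 CPM (1535 to 1625) in BUP-treated CD8 T-like cells, 1361 CPM (1314 to 1410) and 1448 CPM (1406 to 1491) in cycling cells, and 1504 CPM (1464 to 1545) and 1533 CPM (1483 to 1583) in NK-like cells. Other T-like cells held less, at 631 CPM (555 to 714) and 411 CPM (347 to 483). *Id3* (chromosome 4, 135870808 to 135873066) was nearly undetected in CD8 T-like cells, with 4 UMIs in UT and 3 in BUP-treated tumors. Its highest class was other T-like cells, at 17.8 CPM (7.16 to 36.7) and 28.3 CPM (13.6 to 52.1), and its total over the 4 classes was only 60 UMIs.

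*Eomes* (chromosome 9, 118307280 to 118315200) was highest in NK-like cells, at 217 CPM (202 to 233) in UT, against 203 CPM (185 to 222) in BUP-treated tumors. Cycling cells held 82.0 CPM (70.7 to 94.6) and 97.3 CPM (86.8 to 109), CD8 T-like cells 41.4 CPM (33.4 to 50.9) and 78.2 CPM (68.6 to 88.8), and other T-like cells 25.4 CPM (12.2 to 46.8) and 39.6 CPM (21.7 to 66.5). *Tbx21* (chromosome 11, 96988897 to 97006158) was spread more evenly. It ranged from 66.1 CPM in UT other T-like cells to 138 CPM in UT CD8 T-like cells, and CD8 T-like and cycling cells overlapped in both libraries. *Tox* (chromosome 4, 6686353 to 6991644) was highest in CD8 T-like cells, at 625 CPM (593 to 659) in UT, against 489 CPM (464 to 514) in BUP-treated tumors, with 402 CPM (377 to 429) and 435 CPM (412 to 459) in cycling cells. NK-like cells held 48.8 CPM (41.7 to 56.7) and 46.8 CPM (38.5 to 56.3) of *Tox*. A *Tox* UMI was seen in 84.2% of CD8 T-like cells and 20.2% of NK-like cells, and after thinning in 57.9% (54.2 to 61.4) and 8.38% (6.41 to 10.7). The thinned share was 0.722% in the macrophage-like cluster led by *C1qa*.

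Sub-clustering of the 2296 cells, again without the factors, gave 9 groups and sharpened these differences. The 608 CD8 T-like cells of the largest group held 3.48 CPM of *Tcf7*, 530 CPM of *Tox* and 1595 CPM of *Id2*, and the 281 cycling CD8 T-like cells were close to them at 3.31, 553 and 1441 CPM. A group of 116 CD8 T-like cells led by genes of DNA replication (*Mcm2*, *Mcm3*, *Mcm6*) held 1.57 CPM of *Tcf7* and 419 CPM of *Tox*. The 583 NK-like cells held 45.9 CPM of *Tcf7*, 102 CPM of *Lef1*, 215 CPM of *Eomes* and 50.7 CPM of *Tox*. Among 28 gamma-delta T-like cells, named from *Il17a*, *Blk* and *Trdv4*, *Il7r* reached 458 CPM (346 to 595), its highest level in any sub-cluster, with *Tcf7* at 98.1 CPM (50.7 to 171). *Eomes* and *Slamf6* had no UMI in these cells, which allows up to 30.2 CPM.

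A sub-cluster of 300 cells had a median of 1974.5 UMIs and stayed unnamed. Another, of 115 cells led by *S100a9*, *S100a8* and *Il1b*, had high doublet scores in 43.5% of its cells and held 33.3% of all *Id3* UMIs. A group of 160 cells, 135 of them from the other T-like class, was led by *Slit3* and *Foxp3* and was left unnamed because genes of other lineages stood among its leaders. It held 136 CPM of *Tcf7*, 150 CPM of *Lef1* and 170 CPM of *Il7r*.

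**Figure D2:**
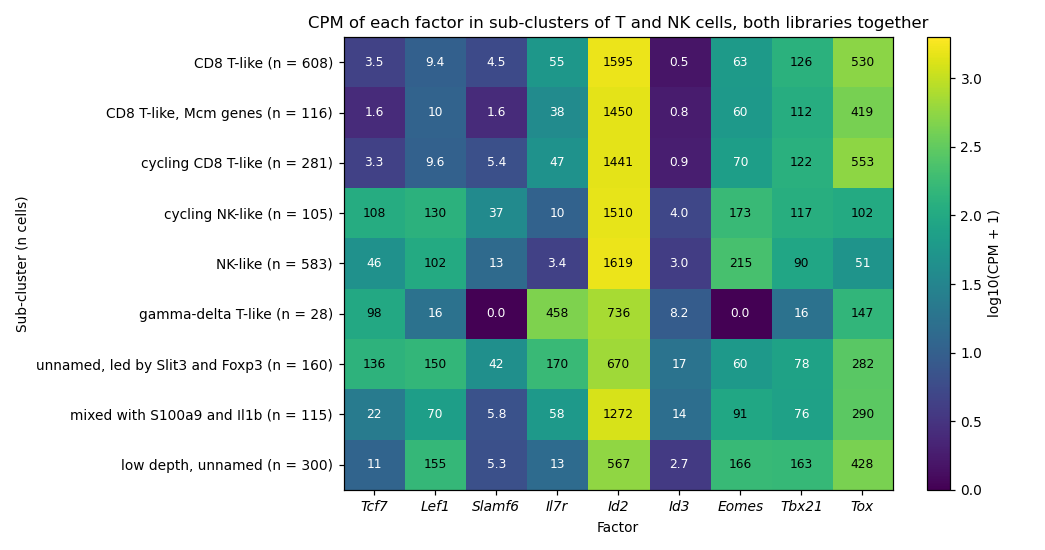
Heat map of CPM of the 9 factors (columns) in the 9 sub-clusters of T-like and NK-like cells (rows, with numbers of cells), over both libraries; color is log10(CPM + 1) and the printed value is the CPM. The 3 rows of CD8 T-like cells are low in *Tcf7*, *Lef1* and *Slamf6*, and the cycling NK-like row is not.

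In the cycling class, *Tcf7* belonged mostly to NK-like cells. The 105 cycling NK-like cells, at 628 CPM of *Ncr1* and 35.1 CPM of *Cd8a*, held 108 CPM (88.9 to 131) of *Tcf7* and 130 CPM (109 to 155) of *Lef1*. They made up 73.0% of the *Tcf7* UMIs of the class, 65.0% of its *Lef1* UMIs and 59.7% of its *Slamf6* UMIs. A split by markers in single cells gave the same picture. The 334 cycling cells with a *Cd8a* or *Cd8b1* UMI and no *Ncr1* UMI held 7.45 CPM (4.99 to 10.7) of *Tcf7*, 50.1 CPM (43.3 to 57.6) of *Il7r* and 531 CPM (508 to 554) of *Tox*. The 78 cells with *Ncr1* and neither *Cd8* gene held 89.9 CPM (72.4 to 110) of *Tcf7*, 1.98 CPM (0.239 to 7.14) of *Il7r* and 80.1 CPM (63.6 to 99.5) of *Tox*.

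Cycling NK-like cells also held more *Tcf7* than the NK-like sub-cluster, 108 CPM against 45.9 CPM (40.2 to 52.2), and more *Slamf6*, 37.1 CPM (26.1 to 51.2) against 12.9 CPM (9.97 to 16.5). Their *Eomes* was lower, at 173 CPM (148 to 200) against 215 CPM (203 to 229). These intervals do not overlap and cover counting error only. The *Tcf7* level of cycling NK-like cells was 108 CPM in each library, from 54 UMIs each.

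The other T-like class was split by marker UMIs in single cells, since its leading genes come from several T cell lineages. The 52 cells with *Cd8a* or *Cd8b1* and no *Cd4*, *Foxp3* or gamma-delta gene held 273 CPM (209 to 350) of *Tcf7*, with a UMI in 57.7% of cells. They held 148 CPM (102 to 207) of *Tox* and 425 CPM (344 to 519) of *Id2*, against 546 and 1525 CPM in the CD8 T-like class. These cells, 25 in UT and 27 in BUP-treated tumors, clustered apart from the main CD8 T-like cells, and a *Tcf7* UMI was found in 12 of the 25 and 18 of the 27.

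Cells with a *Foxp3* UMI, the factor of regulatory T cells, had no *Tcf7* UMI in 31 cells, which allows up to 26.7 CPM. They held 666 CPM (537 to 816) of *Tox* and 658 CPM (530 to 808) of *Id2*; the *Tox* interval lay above those of the other groups, while that of *Id2* overlapped those of gamma-delta cells, of *Cd4* cells without *Foxp3* and of cells with none of the markers. The 25 cells with *Cd4* and no *Foxp3* held 177 CPM (99.3 to 293) of *Tcf7*, 237 CPM (144 to 365) of *Lef1* and 331 CPM (220 to 479) of *Il7r*. In 28 cells with at least 2 UMIs of gamma-delta genes, *Il7r* was at 386 CPM (281 to 518). The 61 cells with none of these markers held 172 CPM (118 to 243) of *Tcf7*, and their *Tcf7* interval overlapped those of the *Cd4* and *Cd8* cells.

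**Figure D3:**
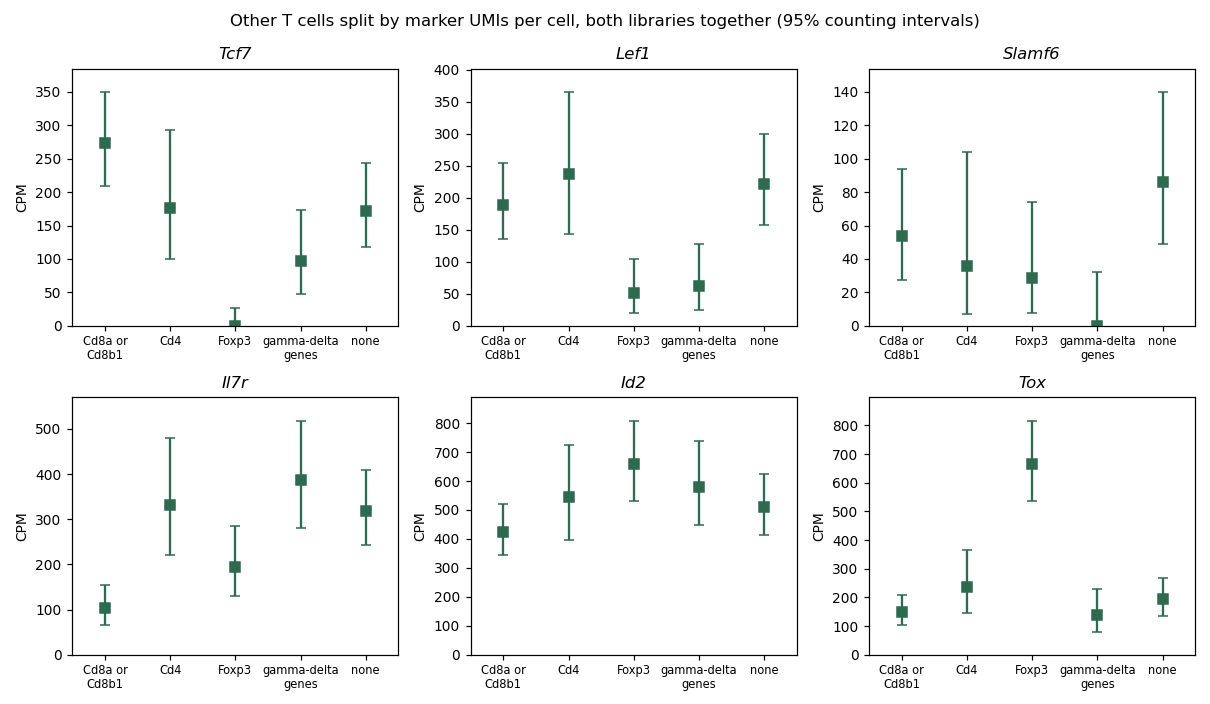
Levels of 6 factors (CPM, linear axes from 0) in other T-like cells split by marker UMIs per cell, over both libraries, with 95% counting intervals. *Tcf7* is at 0 in cells with *Foxp3* and at 273 CPM in cells with *Cd8*, whereas *Tox* is highest in cells with *Foxp3*.

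Within single cells, *Tcf7* and *Lef1* were found together in the other T-like class. Among thinned cells, 17 of 35 with a *Tcf7* UMI also had *Lef1* (48.6%, 31.4 to 66.0), against 21 of 113 without (18.6%, 11.9 to 27.0). *Lef1* and *Id2* were found apart: 8 of 38 cells with *Lef1* had *Id2* (21.1%, 9.55 to 37.3) against 68 of 110 without (61.8%, 52.1 to 70.9). In CD8 T-like cells the detection of *Tox* did not follow that of *Eomes*, with *Eomes* in 52 of 431 cells with *Tox* (12.1%, 9.14 to 15.5) and in 35 of 314 without (11.1%, 7.89 to 15.2). These counts are sparse and describe the cells of 2 libraries.

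In CD8 T-like cells, *Eomes* was the factor that differed most between the libraries among those with at least 100 UMIs. It went from 41.4 CPM in UT to 78.2 CPM in BUP-treated tumors, 1.89-fold higher, a log2 ratio of 0.92 (0.56 to 1.28). A UMI of *Eomes* was found in 18.4% of UT and 32.4% of BUP-treated cells, and after thinning in 7.82% (5.02 to 11.5) and 14.2% (11.1 to 17.8), with 15 and 30 shallower cells left out. Of 6369 genes with enough UMIs in this class, 1.19% were called higher and 4.54% lower. *Eomes* was the only factor of 5 measurable ones called higher, and none was called lower.

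The other 4 measurable factors differed less. *Tox* was lower in BUP-treated cells (log2 ratio -0.36, -0.46 to -0.25), as were *Il7r* (-0.47, -0.83 to -0.11) and *Tbx21* (-0.30, -0.52 to -0.07), and *Id2* was higher (0.12, 0.06 to 0.19), all under 1.5-fold. The counting intervals of these ratios leave out 0, and the median over all measurable genes was -0.07. *Lef1* with 63 UMIs and *Slamf6* with 17 had ratios of -0.89 (-1.66 to -0.12) and -1.73 (-3.59 to -0.12), and *Tcf7* and *Id3* had too few UMIs to give a direction. Macrophage genes moved in the same direction as *Il7r*: the summed RNA of 8 macrophage genes was 888 (UT) and 365 CPM (BUP-treated) in CD8 T-like cells, all 8 detected in each. *Lyz2* reached 524 CPM in UT CD8 T-like cells against 16388 CPM in the macrophage-like cluster led by *Cxcl3*, where *Il7r* was at 182 CPM. The summed RNA of 6 neutrophil genes was 449 and 170 CPM in CD8 T-like cells. The part of this RNA in the *Il7r* difference was not tested.

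The *Eomes* difference was seen in the sub-clusters of CD8 T-like cells too, with an exception. In the 608 cells of the largest group it was 37.1 CPM in UT against 79.0 CPM in BUP-treated cells (log2 ratio 1.09, 0.65 to 1.56). In the cycling CD8 T-like group it was 46.6 and 82.3 CPM (0.82, 0.38 to 1.29). In the group led by *Mcm* genes it was 58.8 and 60.7 CPM (0.05, -0.64 to 0.73). NK-like cells showed no such difference, at a log2 ratio of -0.10 (-0.26 to 0.07).

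**Figure D4:**
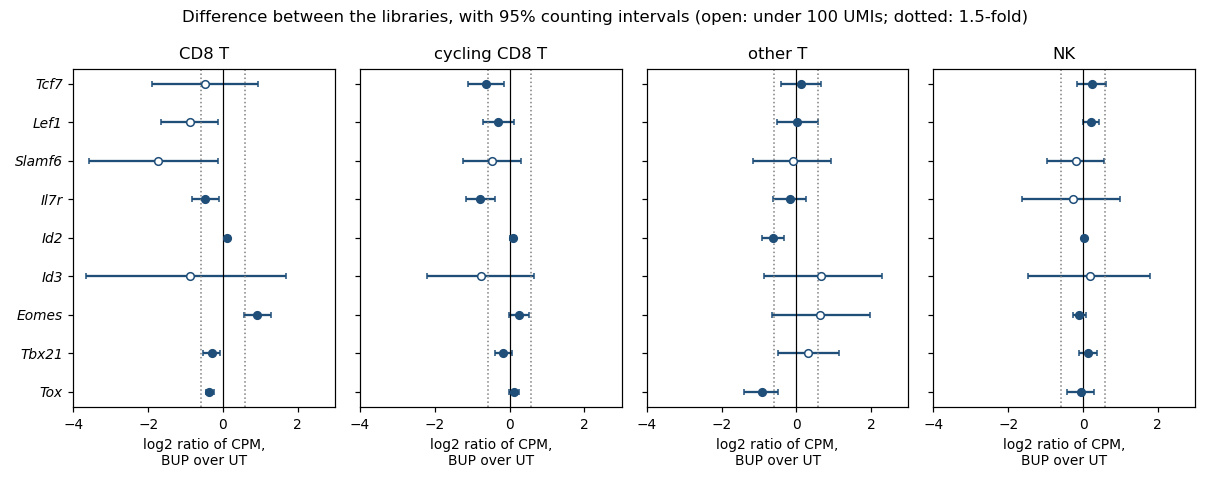
Log2 ratio of CPM, BUP-treated over UT, for each factor in the 4 classes, with 95% counting intervals; open points had under 100 UMIs over both libraries and dotted lines mark 1.5-fold. *Eomes* in CD8 T-like cells lies right of the line, and *Il7r* and *Tcf7* in cycling cells and *Tox* and *Id2* in other T-like cells lie left of it.

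In the cycling class, *Il7r* and *Tcf7* were called lower among 7 measurable factors and none was called higher. *Il7r* was 56.3 CPM in UT against 32.8 CPM in BUP-treated cells (log2 ratio -0.78, -1.17 to -0.40), and *Tcf7* 34.0 and 22.0 CPM (-0.63, -1.11 to -0.14). Of 6765 genes, 1.97% were called higher and 3.33% lower. The *Tcf7* ratio depended on how the class was divided. Cycling NK-like cells, at the same 108 CPM in both libraries, were 53 of 191 cells in UT and 52 of 285 in BUP-treated tumors. With the sub-cluster mix held at that of UT the ratio of *Tcf7* was -0.14, and with classes taken from marker UMIs per cell it turned to 1.21 (0.20 to 2.33). Other divisions went the other way. Without cells with *Ncr1* or of the cycling NK-like sub-cluster the ratio was -1.08 (-2.41 to 0.19). In cycling cells with *Ncr1* and neither *Cd8* gene *Tcf7* was 106 and 74.1 CPM (-0.52, -1.16 to 0.11). In cycling cells with *Cd8* and without *Ncr1* it had 8 UMIs in UT and 21 in BUP-treated cells (0.77, -0.46 to 2.16). The cycling CD8 T-like sub-cluster was at -0.05 (-2.03 to 2.17). The direction of *Tcf7* in cycling CD8 T-like cells was therefore not settled at this depth.

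*Il7r* and *Eomes* behaved otherwise once the NK-like cells were set aside. In cycling cells with *Cd8* and without *Ncr1*, *Il7r* was 76.2 CPM in UT against 33.1 CPM in BUP-treated cells (-1.20, -1.64 to -0.78), found in 34.1% and 23.7% of cells. In the whole cycling class, macrophage genes summed to 518 CPM (UT) and 417 CPM (BUP-treated). *Eomes* in the cells with *Cd8* and without *Ncr1* was 47.5 and 83.1 CPM (0.81, 0.41 to 1.22), past the 1.5-fold line that the class as a whole did not reach at 0.25 (-0.02 to 0.52). *Tox* was 529 and 532 CPM (0.01, -0.12 to 0.14). Thus *Eomes* was higher and *Il7r* lower in BUP-treated CD8 T-like cells, cycling or not, with counting intervals that leave out 0. The *Il7r* difference in the CD8 T-like class (-0.47) was under 1.5-fold. Its thinned shares there overlapped, at 11.2% (7.85 to 15.4) in UT and 8.43% (6.03 to 11.4) in BUP-treated cells. In the CD8 T-like group led by *Mcm* genes both intervals held 0. *Eomes* was at 0.05 (-0.64 to 0.73) and *Il7r* at -0.24 (-1.14 to 0.64) in that group.

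In other T-like cells, *Tox* and *Id2* were called lower among 5 measurable factors. *Tox* was 341 CPM (286 to 404) in UT, against 178 CPM (137 to 228) in BUP-treated cells (log2 ratio -0.93, -1.39 to -0.49), and *Id2* 631 and 411 CPM (-0.62, -0.93 to -0.32). Of 1208 genes, 3.81% were called higher and 8.2% lower. The shares of cells did not follow: *Tox* was found in 40.9% of UT and 42.5% of BUP-treated cells, and after thinning in 29.4% and 30.2%. A few cells carried much of these values: the 5 highest cells held 45.5% of the *Tox* UMIs in UT and 38.1% in BUP-treated tumors, and 39.5% and 26.9% of the *Id2* UMIs. Among cells with *Foxp3*, *Tox* was 944 CPM in 19 UT cells and 344 CPM in 12 BUP-treated cells (-1.46, -2.22 to -0.75). Cells with *Cd8* were as low, at 216 and 79.8 CPM (-1.44, -2.73 to -0.28). The *Tox* ratio was -1.17 (-3.63 to 0.69) in gamma-delta cells, 0.15 in *Cd4* cells without *Foxp3* and 0.09 in cells with none of the markers. That of *Id2* ran from -1.21 (-1.89 to -0.56) in cells with *Cd8* to 0.41 (-0.35 to 1.16) in gamma-delta cells. The gamma-delta T-like sub-cluster went the other way for *Id2*, at -1.09 (-1.77 to -0.44), and had *Tox* at -2.41 (-4.84 to -0.59). Each of these groups had under 100 UMIs of either gene. *Foxp3* itself was at 178 and 96.3 CPM in the class. Neutrophil genes moved the other way there, at 239 (UT) and 626 CPM (BUP-treated), and macrophage genes were at 1206 and 971 CPM; their part in these differences was not tested. *Tcf7*, *Lef1* and *Il7r* had ratios of 0.13 (-0.41 to 0.67), 0.03 (-0.52 to 0.58) and -0.18 (-0.62 to 0.26), and the intervals of *Tcf7* and *Il7r* still allow a 1.5-fold difference.

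In NK-like cells, where macrophage genes summed to 692 and 457 CPM, none of 6 measurable factors was called in either direction. Their log2 ratios ran from -0.10 for *Eomes* to 0.23 for *Tcf7* (-0.16 to 0.62). *Lef1* was at 0.22 (-0.01 to 0.44), *Tbx21* at 0.13 (-0.12 to 0.38) and *Id2* at 0.03 (-0.03 to 0.09). Of 6612 genes, 0.635% were called higher and 4.11% lower. These counting intervals do not reach 1.5-fold for *Id2*, *Eomes*, *Lef1* or *Tbx21*, and that of *Tcf7* does.

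The genes around the factors were read from lists of known partners and programs. Among 12 partners of TCF-1 and LEF-1 and effectors of Wnt signaling, 4 were measurable in CD8 T-like cells with none called, and in NK-like cells the corepressor gene *Tle3* was lower (UT 55.9 CPM, BUP-treated 37.1 CPM, log2 ratio -0.59, -0.97 to -0.22). Of 7 E proteins and other partners of Id proteins, 3 were measurable in CD8 T-like cells, with *Tcf4*, an E protein gene, lower (-0.76, -1.36 to -0.16) and a list median of -0.48. Of 12 naive and memory genes, 6 were measurable in CD8 T-like cells, and *Bach2*, a repressor that holds T cells in a less differentiated state, was lower (106 and 50.6 CPM, -1.07, -1.37 to -0.77), with a list median of -0.49 beside -0.07 over all genes. In other T-like cells *Ccr7*, which guides T cells to lymph nodes, was higher (211 and 422 CPM, 1.00, 0.60 to 1.40) and *Klf2*, a factor of T cell quiescence and trafficking, lower (1244 and 725 CPM, -0.78).

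Among 14 genes of interleukin 7 and common gamma chain signaling, 1 difference recurred. *Il2ra*, the high-affinity interleukin 2 receptor chain, was lower in CD8 T-like (122 and 58.5 CPM, -1.07), cycling (106 and 52.3 CPM, -1.01) and other T-like cells (397 and 212 CPM, -0.90), and *Stat5a* was lower in cycling cells (-0.61, -1.12 to -0.11). The list medians were -0.10, -0.05 and -0.21 in these classes. *Stat5a* in CD8 T-like cells was at 0.43 (-0.10 to 0.98). *Il2ra* in NK-like cells was at -0.58 (-1.04 to -0.14), just under 1.5-fold. Among 12 SLAM receptors and adaptors, *Slamf7* was lower in CD8 T-like (34.6 and 18.1 CPM, -0.94) and cycling cells (35.3 and 18.0 CPM, -0.98), and *Sh2d1a*, which encodes the adaptor SAP, was higher in cycling cells (160 and 244 CPM, 0.61, 0.43 to 0.79).

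Effector and exhaustion genes were called in both directions. *Gzmk*, a granzyme gene, was higher in CD8 T-like (59.2 and 114 CPM, 0.95, 0.66 to 1.25) and cycling cells (54.1 and 101 CPM, 0.90, 0.60 to 1.21). *Gzma* was lower in CD8 T-like cells (108 and 47.3 CPM, -1.19, -1.50 to -0.89), far under its 7908 and 5855 CPM in NK-like cells. The part of NK cell RNA in that difference was not tested. *Gzmb* was lower in cycling cells (-0.68, -0.74 to -0.61) and other T-like cells (-0.81, -1.03 to -0.59). Within the cycling class, *Gzmb* was at -1.30 (-1.44 to -1.17) in cycling NK-like cells and -0.09 (-0.19 to 0.01) in cycling CD8 T-like cells. No other of the 14 effector genes measurable in CD8 T-like cells was called, and the list median was 0.03. Of 12 measurable exhaustion genes in that class only *Nr4a1*, an early gene of antigen receptor signaling, was called, higher at 0.64 (0.22 to 1.08). In cycling cells *Nr4a1* (1.11, 0.79 to 1.44) and *Nr4a3* (0.92, 0.61 to 1.24) were higher and *Ctla4* lower (-0.78, -0.96 to -0.60). By sub-cluster, *Nr4a1* was at 1.71 (1.11 to 2.34) in cycling NK-like cells and 0.80 (0.30 to 1.33) in cycling CD8 T-like cells. *Nr4a3* was at 1.57 (0.87 to 2.32) in the former and 0.50 (0.11 to 0.90), under 1.5-fold, in the latter. *Ctla4* was lower in other T-like cells too (-0.59, -0.88 to -0.30), and *Havcr2*, which encodes the inhibitory receptor TIM-3, in NK-like cells (-0.62, -0.91 to -0.33).

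Of 12 stem-like CD8 T cell genes, *Xcl1*, which encodes a chemokine that draws dendritic cells, was the gene called. It was higher in CD8 T-like cells (16.8 and 43.1 CPM, log2 ratio 1.35, 0.82 to 1.92) and in NK-like cells (290 and 663 CPM, 1.19, 1.08 to 1.31), and lower in cycling cells (287 and 186 CPM, -0.63, -0.79 to -0.47). In the largest CD8 T-like group the ratio of *Xcl1* was 0.41 (-0.09 to 0.93). Among 11 other lineage factors, *Rora* was lower in CD8 T-like (-1.29, -1.71 to -0.87) and cycling cells (-0.68, -1.05 to -0.31). By sub-cluster, *Rora* was at -0.25 (-0.80 to 0.30) in the largest CD8 T-like group and 0.10 (-0.55 to 0.77) in cycling CD8 T-like cells, and in the group led by *Mcm* genes it had 40 UMIs in UT and 3 in BUP-treated cells. *Foxp3* (-0.89, -1.52 to -0.28), *Maf* (-1.24, -1.87 to -0.65) and *Ikzf2* (-0.67, -0.95 to -0.39) were lower in other T-like cells, and *Gata3* was higher in NK-like cells (0.60, 0.18 to 1.02). The cell cycle genes *Mki67* and *Top2a* were lower in BUP-treated CD8 T-like cells (-1.09, -1.49 to -0.69, and -0.64, -0.97 to -0.31), and none of 8 was called in the cycling class. *Mki67* (-0.70, -1.11 to -0.30) and *Mcm5* (-0.69, -1.09 to -0.30) were lower in NK-like cells.

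Several factors were not particular to T and NK cells. *Il7r* measured 182 CPM in the macrophage-like cluster led by *Cxcl3* and *Inhba*, 204 CPM in cells led by interferon-induced genes (*Rsad2*, *Ifit2*), 273 CPM in migratory dendritic-like cells (*Fscn1*, *Ccr7*, *Ccl22*) and 320 CPM in a cluster of 80 cells with genes of plasmacytoid and B cells (*Siglech*, *Cd79a*), beside 243 CPM in other T-like cells. *Id3* reached higher levels outside the T and NK classes than within, at 132 CPM in monocyte-like cells led by *Ace* and *Adgre4* and 137 CPM in the largest non-immune cluster, led by *Ogn* and *Aspn*. In that non-immune cluster *Id3* was 67.7 CPM (62.6 to 73.2) in UT, against 160 CPM (156 to 165) in BUP-treated tumors. *Slamf6* reached 56.9 CPM in the cluster with plasmacytoid and B cell genes, and *Tcf7* 51.9 CPM in migratory dendritic-like cells. *Eomes*, *Tbx21* and *Tox* stayed at or below 15.8, 26.2 and 78.5 CPM in all immune clusters outside the 4 classes, other than the mixed cluster of 539 cells kept out of them, which held 51.6 CPM of *Tbx21*, 139 CPM of *Tox* and more *Eomes* than other T-like cells.

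**Figure D5:**
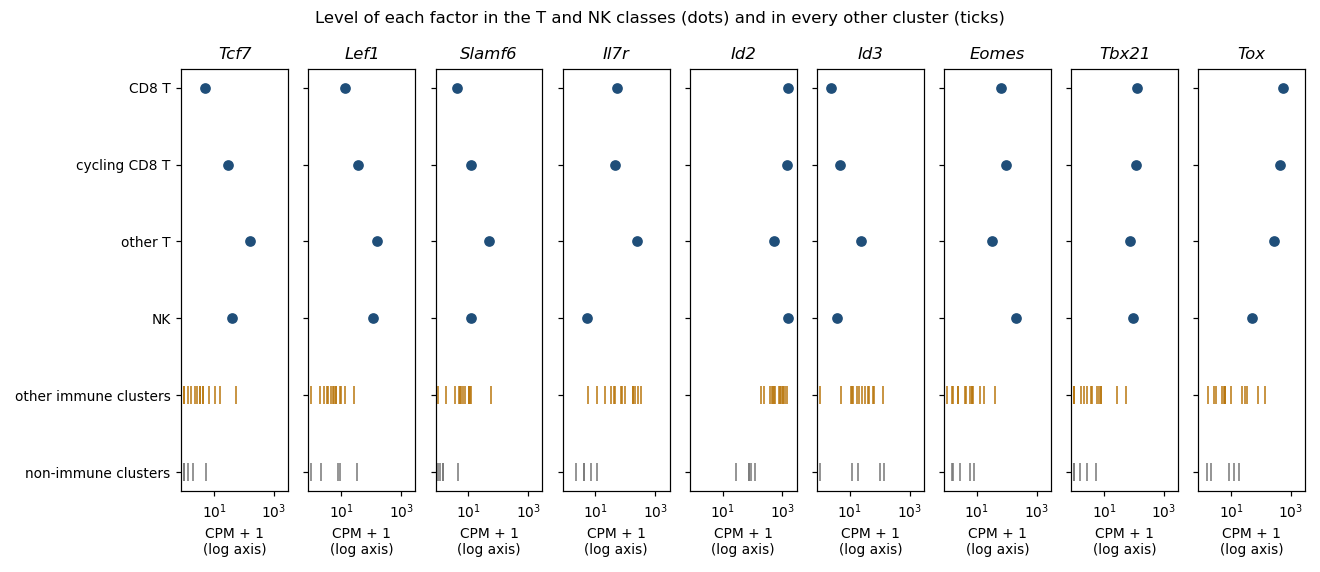
Level of each factor (CPM + 1, log axes) over both libraries in the 4 classes (dots) and in every other immune and non-immune cluster (ticks). The ticks of *Il7r*, *Id2* and *Id3* reach or pass the dots, while the *Tbx21* dots lie right of all ticks. For *Slamf6*, the cluster with plasmacytoid and B cell genes passes all dots. For *Tcf7*, the migratory dendritic-like cluster passes all dots but that of other T-like cells. For *Eomes*, the mixed cluster passes the dot of other T-like cells, and for *Tox* the dot of NK-like cells (48.0 CPM) lies left of the mixed cluster (139 CPM) and of the cluster led by *Birc5* and *Cdca3* (78.5 CPM).

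Across the immune clusters, taken as 36 points (18 clusters in each library), the 3 genes whose pattern was most like that of each factor were listed. These correlations of log2(CPM + 10) describe 11550 genes across points that share 2 libraries, and carry no test. *Tox* was closest to *Trbc2*, *Cd3g* and *Trac*, genes of the T cell receptor complex (Pearson r of 0.973, 0.971 and 0.966), *Tbx21* to *Zap70* (0.969), *Bspry* and *Gm36347*, and *Eomes* to *Fhl2* (0.975), *Txk* and *Adgrb2*. *Lef1* was closest to *Sidt1* (0.939), *Trdv4* and *Gprin3*, and *Tcf7* to *Trgc4* (0.871), *Sidt1* and *Xcl1*. *Slamf6* was closest to *Ralgps2* (0.879), *Hs3st3b1* and *Clcn3*. For the factors that other cells also express the closest genes were less close: *Il6st*, *Kremen1* and *Rftn1* for *Il7r* (0.756 at most), *Endod1*, *Gm36723* and *Nr4a2* for *Id2* (0.734) and *Mob3b*, *Cyp4f16* and *Fam43a* for *Id3* (0.806). Between factors, r was 0.838 for *Tcf7* and *Lef1*, 0.894 for *Eomes* and *Tbx21*, 0.872 for *Tbx21* and *Tox*, and -0.380 for *Id2* and *Id3*.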

How the data were processed

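Single-cell RNA libraries of UT and BUP-treated CT26 tumors, 1 each, were analysed from the deposited counts: UMIs per gene and barcode, not normalized. The submitters' processing notes name Cell Ranger 8.0.1 and Seurat 5.0.1. The labels give CD45+ and CD45- cells pooled at 4 to 1 and the study's methods 3 to 1, which sets the share of immune cells.

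Here, barcodes with over 100 UMIs and under 20% mitochondrial UMIs were clustered with Seurat 5.3.0 in R 4.3.3 (2000 variable genes, 20 principal components, resolution 0.5), leaving out the 9 factors and 7 other compared genes. Clusters with a *Ptprc* UMI in at least 30% of cells were taken as immune and clustered again into 18 clusters. Class thresholds, as shares of the highest cluster (T: *Cd3e* from 0.3 and *Lyz2* under 0.1; CD8: *Cd8a* from 0.3; cycling: *Mki67* from 0.5; NK: *Ncr1* from 0.5 and *Cd3e* under 0.05), were set after the clusters were seen. Doublets were scored with Scrublet in scanpy 1.11.5, and the top 6% were marked, not removed. Sums per class were scaled to CPM, ratios had exact conditional intervals and shares exact binomial ones (scipy 1.17.1), all at 95% and for counting error only. A count of 0 was read with its upper interval bound. Shares were also taken after thinning cells to 2000 UMIs. Gene positions and sequences are from GRCm39, which may differ from the reference the counts were made with.

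The 9 factors and the 15 gene lists were chosen with earlier results of these data known. In each class the list genes named are those past 1.5-fold with at least 100 UMIs over both libraries, at most the 4 with the most UMIs per list, and the 3 closest genes are named for each factor. A gene that this rule names is not reported here. Lists of tumor, dendritic and B or plasmacytoid cell genes had no gene with 100 UMIs in any class. With 1 library per group no test was run. On simulated counts for CD8 T-like cells (6369 genes, 200 changed by a log2 of 1), 99.0% of changed genes and 0.859% of the others were called. For other T-like cells (1208 genes, 200 changed) the shares were 95.5% and 1.98%. The simulated counts held counting error only, with no spread between cells or animals. They therefore cannot give the rate of false calls in these data.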

Additional observations from a re-analysis of the deposited data

Results flagged for a closer look

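Among the genes named beside the factors, a pair had differences of opposite direction between classes; the difference between classes was not tested. *Xcl1* was higher in BUP-treated than in UT CD8 T-like cells (log2 ratio 1.35) and NK-like cells (1.19) and lower in cycling cells (-0.63). By sub-cluster, *Xcl1* had a ratio of 1.43 (1.31 to 1.55) in NK-like cells, -0.14 (-0.36 to 0.08) in cycling NK-like cells, 0.41 (-0.09 to 0.93) in the largest group of CD8 T-like cells and -0.69 (-0.99 to -0.40) in cycling CD8 T-like cells. *S100a9*, a neutrophil gene, was higher in BUP-treated other T-like cells (1.25) and lower in CD8 T-like cells (-1.31). Over both libraries, *S100a9* was at 2367 CPM in the sub-cluster of 115 cells that it leads, and at or below 40.9 CPM in every other sub-cluster. That sub-cluster held 32 CD8 T-like and 15 other T-like cells, and 43.5% of its cells had high doublet scores. Its part in the *S100a9* differences was not tested.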

How the results depend on the processing

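Over 14 alternatives, *Eomes* in CD8 T-like cells kept a log2 ratio of 0.69 to 1.13 and *Il7r* in cycling cells one of -1.16 to -0.46, past 1.5-fold in 14 and 13 of them. *Tcf7* in cycling cells ran from -1.08 to 1.21, and turned direction with classes from marker UMIs per cell (1.21). *Tox* in other T-like cells ran from -1.37 to -0.31 and *Id2* from -0.73 to -0.17, past 1.5-fold in 13 and 6. The number of factors called higher went from 1 to 0 in CD8 T-like cells at a fold of 2, from 0 to 1 (*Eomes*) in cycling cells at resolution 1.0, with classes from marker UMIs and without cells with *Ncr1* or of the cycling NK-like sub-cluster, and from 0 to 1 (*Eomes*) in other T-like cells with at least 20 UMIs. The number called lower went from 0 to 1 (*Lef1*) in CD8 T-like cells with at least 20 UMIs. In cycling cells it went from 2 to 1 (*Il7r*) at resolution 1.0, with 30 principal components, median-ratio scaling, classes from marker UMIs, the 6% highest doublet scores removed, the mix of sub-clusters held at UT, and without the sub-cluster with myeloid RNA or the cells with *Ncr1*, and to 0 with the mean of per-cell CPM and at a fold of 2; without the cells with *Ncr1* the *Tcf7* ratio was -1.08, and the call was lost with fewer than 100 UMIs left. In other T-like cells it went from 2 to 1 (*Tox*) with at least 1000 UMIs and 500 genes and under 10% mitochondrial UMIs, resolution 1.0, the factors kept among variable genes, median-ratio scaling, the mean of per-cell CPM, thinning to 2000 UMIs and the mix held, to 1 (*Tbx21*) with classes from marker UMIs, and to 0 at a fold of 2. Leaving out a sub-cluster, the cells with *Ncr1* or the shared barcodes was chosen after seeing the data. The cause of these moves was not tested. No paired analysis was possible because each group has 1 library. Depth limits *Tcf7*, *Slamf6* and *Id3* in CD8 T-like cells, with 20, 17 and 7 UMIs.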
